A study of Mus musculus with 4 samples.

Results

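Replicate 1 of the S490/498 antibody gave 7132 peaks on chromosomes 1-19, X and Y, and 1743 of them overlapped no peak, by 1 bp or more, in either T69/71 library. These 1743 regions are 24.4% of that list (exact binomial 95% interval 23.4 to 25.5) and are described here. They were selected on the positions of the deposited peaks in 3 libraries, so their lack of a T69/71 peak is a description and carries no test. The cells were haematopoietic stem cells, sorted as CD48-CD150+LSK from the marrow of C57BL/6J mice labelled wild type, and all 4 libraries share this genotype and gate. Binding was measured by CUT&Tag, in which antibody-bound chromatin is cut and tagged in place by a tethered transposase and the released DNA is sequenced. The 2 groups differ in the antibody, against ATF2 phosphorylated at T69/71 or at S490/498, with 2 libraries each from 2000 to 5000 cells and 17 to 20 PCR cycles. For the T69/71 libraries the antibody field names another first residue than the titles, which are followed here. The labels do not give the age of the mice or say if replicates are different animals, so the spread between them may be technical, and an IgG or input library was not analysed here. The files hold the position and strength of peaks and no expression values, so the identity of the cells could not be checked against their markers.

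ATF2 is a leucine-zipper factor that binds DNA as a dimer with itself, with JUN or with other family members, at the cAMP response element (CRE) and related AP-1 letters. Kinases of the JNK and p38 stress pathways phosphorylate its N-terminal threonines, which raises its activity as a transcription factor. The C-terminal serines are substrates of ATM, a kinase that answers DNA breaks, and that form of ATF2 has been placed at damage foci rather than at promoters.

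Sequence under these regions could be read where they covered a promoter window of the RefSeq table (GRCm38.p6, the mm10 assembly), which runs from 250 bases before to 50 bases after a gene's start. With 1 chromosome left out, in 89 windows of 85 genes a region covered at least 100 bases before the start. Of these 89 covered stretches, 5 held the CRE, TGACGTCA, or the AP-1 letters, TGANTCA. Of all 21263 whole windows, which are longer than these stretches, 2.23% held the CRE and 6.99% the AP-1 letters. The units differ, so 5 of 89 is given as a count only and not as an excess. The 5 are shown because these are the letters that ATF2 dimers are known to bind, and they were picked for holding them. Ipo11 is added as the strongest peak at a gene end among the 89. Each is written 5' to 3' on the gene's strand and covers only the bases before the start that lie in the peak. Capitals mark every match, on either strand, to what was searched: the CRE, its TGACG core, the AP-1 letters, TGATGCAA of the amino acid response, the GC box GGGCGG, the CCAAT box, the ETS letters CCGGAAG and the NRF1 motif.
Il6: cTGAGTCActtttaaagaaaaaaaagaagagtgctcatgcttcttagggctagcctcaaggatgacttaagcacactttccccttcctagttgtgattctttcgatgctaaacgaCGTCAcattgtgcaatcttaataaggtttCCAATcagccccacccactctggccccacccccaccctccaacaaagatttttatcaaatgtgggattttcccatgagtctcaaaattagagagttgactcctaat
Dnah6: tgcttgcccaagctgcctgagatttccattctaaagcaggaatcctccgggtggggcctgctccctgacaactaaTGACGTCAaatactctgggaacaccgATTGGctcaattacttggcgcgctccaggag
F3: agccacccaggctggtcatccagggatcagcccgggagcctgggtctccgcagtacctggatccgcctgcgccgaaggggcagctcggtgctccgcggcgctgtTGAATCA
Ikbkg: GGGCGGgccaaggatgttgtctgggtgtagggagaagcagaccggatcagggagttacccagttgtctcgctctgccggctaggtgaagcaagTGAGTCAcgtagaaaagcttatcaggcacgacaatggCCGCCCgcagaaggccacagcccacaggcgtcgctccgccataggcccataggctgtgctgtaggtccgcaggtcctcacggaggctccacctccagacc
Vwa7: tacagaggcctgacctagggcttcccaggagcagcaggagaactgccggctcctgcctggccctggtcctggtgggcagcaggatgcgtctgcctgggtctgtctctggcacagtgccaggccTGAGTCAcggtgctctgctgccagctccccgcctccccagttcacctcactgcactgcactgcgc
Ipo11: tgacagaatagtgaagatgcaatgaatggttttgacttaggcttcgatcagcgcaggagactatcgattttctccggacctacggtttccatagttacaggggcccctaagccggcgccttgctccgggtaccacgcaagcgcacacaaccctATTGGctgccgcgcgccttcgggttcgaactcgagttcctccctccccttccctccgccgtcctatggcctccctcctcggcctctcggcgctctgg

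Il6 encodes an inflammatory cytokine, and its promoter is a textbook target of AP-1, CREB/ATF and NF-kappaB factors. The stretch shown is chr5:30012864-30013113 on the plus strand, with an AP-1 match, a TGACG match on the minus strand and a CCAAT box. The S490/498 peak there was 376 bp wide, with a fold enrichment of 4.82, a −log10 q of 3.30 and 5 fragments at the summit. The nearest T69/71 peaks lay 39.8 kb away in replicate 1 and 120 kb away in replicate 2. Dnah6, a ciliary dynein heavy chain gene, was the only one of these 5 with the full CRE, at chr6:73221750-73221881 on the minus strand. Its peak had a fold of 4.28 and 4 fragments, and a T69/71 replicate 1 peak began 107 bp away. F3 (tissue factor, chr3:121723287-121723397, plus) had a fold of 3.60 on 3 fragments. Ikbkg, the regulatory subunit of the IkappaB kinase (chrX:74393041-74393270, plus), had 5.46 on 6 fragments. Vwa7 (chr17:35016361-35016548, plus) had 4.14 on 5 fragments. At Ipo11, an importin gene (chr13:106936959-106937208, minus), the fold was 8.67 on 11 fragments, and the stretch held a CCAAT match and neither the CRE nor the AP-1 letters. The 5 with these letters were named after their sequences were seen, and a match is a description of the letters, not a shown binding site.

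The peaks rested on few fragments. The number at each summit was recovered from the deposited fold enrichment (summit pileup plus 1, over local background plus 1) and the deposited p. Of the 1743 regions, 508 (29.1%) had 3 fragments, the smallest number that made a peak in this list, 430 (24.7%) had 4 and 320 (18.4%) had 5. The median was 4 (quartiles 3 and 6), and 90.1% (88.6 to 91.5) had at most 7. Of the other 5389 peaks of the library, which overlapped a T69/71 peak, 5375 had a recovered number, with a median of 10 (quartiles 7 and 16) and 30.6% (29.4 to 31.9) at most 7. Median fold enrichment was 4.42 against 6.73, and median −log10 q was 2.98 against 6.72. With −log10 q of at least 5, 308 regions remained, with a median of 7 fragments. The sources used here do not say whether duplicate reads were removed, so fragments need not be separate molecules.

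The regions were also narrow. Their median width was 219 bp (quartiles 198 and 273), against 324 bp (245 and 453) for the other peaks, and the narrowest peak in either set was 187 bp. A width of at most 200 bp was found in 29.5% (27.4 to 31.7) against 6.98% (6.31 to 7.69). A narrow peak has fewer bases with which to meet a partner, so width and the rule that chose these regions are not independent. Together they covered 444 kb, and the others 2.01 Mb.

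**Figure D1:**
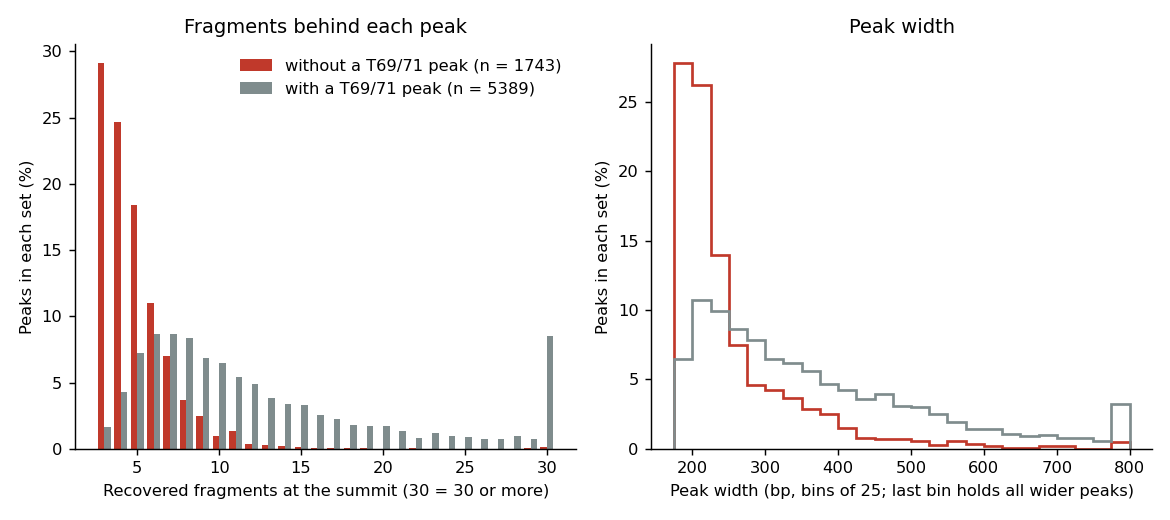
Left, share of peaks (%) by recovered fragments at the summit; right, share of peaks (%) by width in bp, for the 1743 S490/498 replicate 1 peaks without a T69/71 peak and the 5389 with one. The red bars are highest at 3 and 4 fragments (29.1% and 24.7%) and the red line below 225 bp, while the grey set spreads to larger values; the last bars gather all larger values, with the peaks too strong for a recovered number in the last bar on the left.

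The share without a T69/71 peak fell with strength. It was 64.5% (59.9 to 68.9) among the 448 peaks with −log10 q under 2, 38.2% (35.1 to 41.3) from 3 to 4, 20.0% (17.1 to 23.2) from 5 to 6 and 2.80% (1.91 to 3.94) from 10 to 20. By fragments, it was 63.9% (61.7 to 66.0) at 3 to 5 and 0.402% (0.11 to 1.03) above 19, peaks with no recovered number left out. The same was computed for each T69/71 library against the other 2 of these 3 lists. Without a partner there were 4755 of 12464 peaks in replicate 1 (38.1%, 37.3 to 39.0) and 7012 of 14716 in replicate 2 (47.6%, 46.8 to 48.5). At 6 fragments the shares were 51.8% (48.8 to 54.9) and 68.0% (65.4 to 70.5), against 29.0% (25.6 to 32.7) in S490/498 replicate 1. In every band of fragments up to 19, the S490/498 library had the lowest share, and its interval overlapped neither T69/71 interval. The lists searched differed in length: both T69/71 lists (12464 and 14716 peaks) for S490/498, but 1 T69/71 list and the 7132 peaks of S490/498 for each T69/71 library. The part of list length in this order was not tested.

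**Figure D2:**
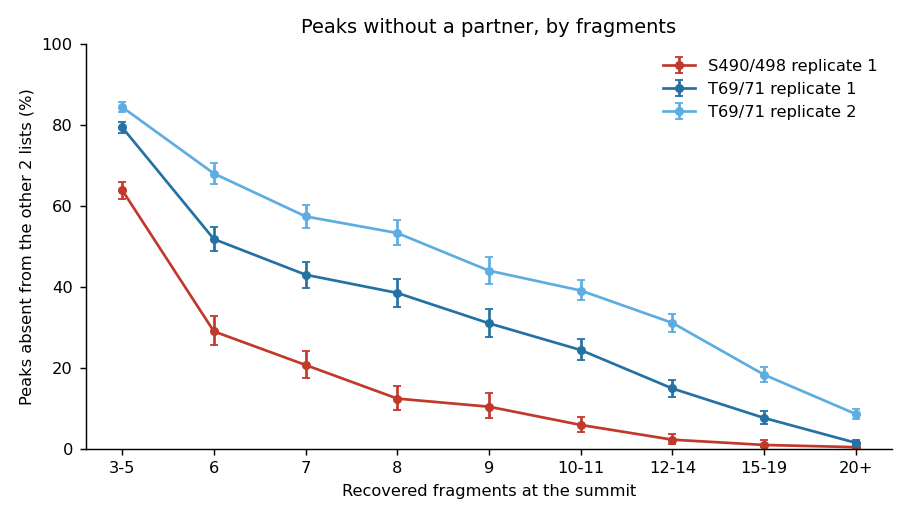
Share of peaks (%) that overlap no peak of the other 2 of the 3 larger lists, by recovered fragments at the summit, with exact binomial 95% intervals. All 3 lines fall from left to right, and the S490/498 line, from 63.9% to 0.402%, lies below both T69/71 lines.

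The regions lay mostly away from gene ends. A summit within 1 kb of either end of a protein-coding gene was found for 286 of them (16.4%, 14.7 to 18.2). A further 752 (43.1%, 40.8 to 45.5) lay inside genes away from the ends of the whole gene, and 705 (40.4%, 38.1 to 42.8) between genes. Without T69/71 replicate 1 as a partner, the gene-end share was 25.5%. Among the other peaks of the library these shares were 55.9% (54.6 to 57.2), 23.7% (22.6 to 24.9) and 20.4% (19.3 to 21.5). Of the annotated span of these chromosomes, 2.93% lay within 1 kb of a gene end, 36.6% inside genes away from ends and 60.5% between genes. The gene-end share of the regions was thus above the share of bases and below that of the other peaks. The peaks without a partner in the T69/71 libraries were placed in a like way, with 23.8% (22.6 to 25) and 19.4% (18.5 to 20.3) at gene ends in replicates 1 and 2. The intervals of the 3 lists did not overlap, with S490/498 the lowest, but the lists searched differed. S490/498 was searched against both T69/71 lists, and each T69/71 library against 1 T69/71 list and S490/498 replicate 1. With 1 T69/71 list searched, the S490/498 share was 25.5% without replicate 1 and 20.6% without replicate 2. Both values lie above 19.4%, so S490/498 was the lowest only with both T69/71 lists searched. Peaks of 1 library are not replicates, so the intervals cover counting error only and no p-value is given.

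**Figure D3:**
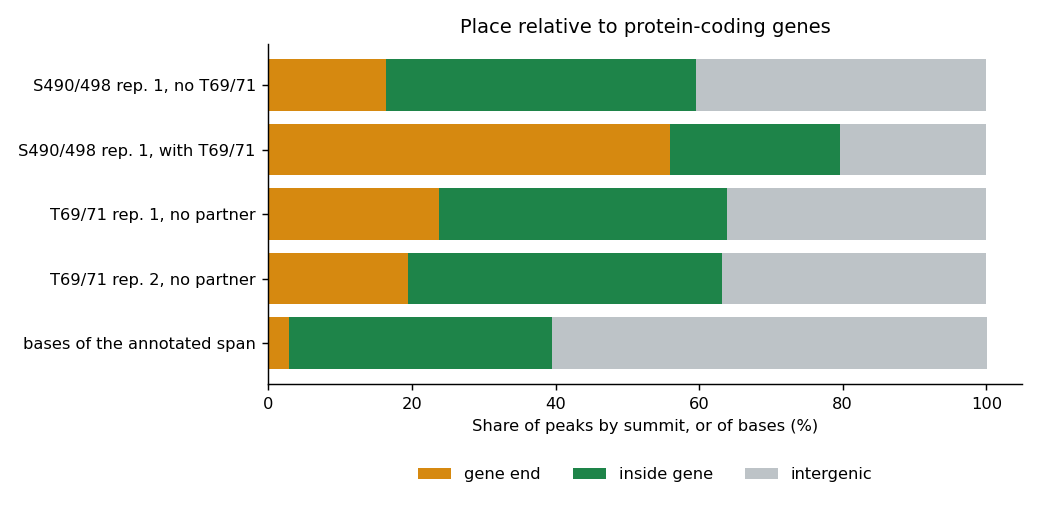
Share (%) of summits at gene ends (within 1 kb), inside genes away from ends and between genes, for the S490/498 replicate 1 peaks without and with a T69/71 peak, for the T69/71 peaks without a partner, and for the bases of the annotated span. The gene-end part is 16.4%, 55.9%, 23.8%, 19.4% and 2.93% from top to bottom.

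Within bands of −log10 q, the place differed too. With −log10 q from 2 to 3, 15.2% (12.4 to 18.3) of the regions were at gene ends, against 50.9% (46.4 to 55.4) of the other peaks. From 4 to 5 the shares were nearest, at 28.8% (21.9 to 36.4) and 52.1% (48.0 to 56.1). From 6 to 8 they were 8.82% (4.11 to 16.1) and 56.8% (53.3 to 60.3). The intervals were apart in all 8 bands that held both sets. In the strongest band with both, from 10 to 20, it was 3 of 31 regions (9.68%, 2.04 to 25.8) against 64.3% (61.3 to 67.2).

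**Figure D4:**
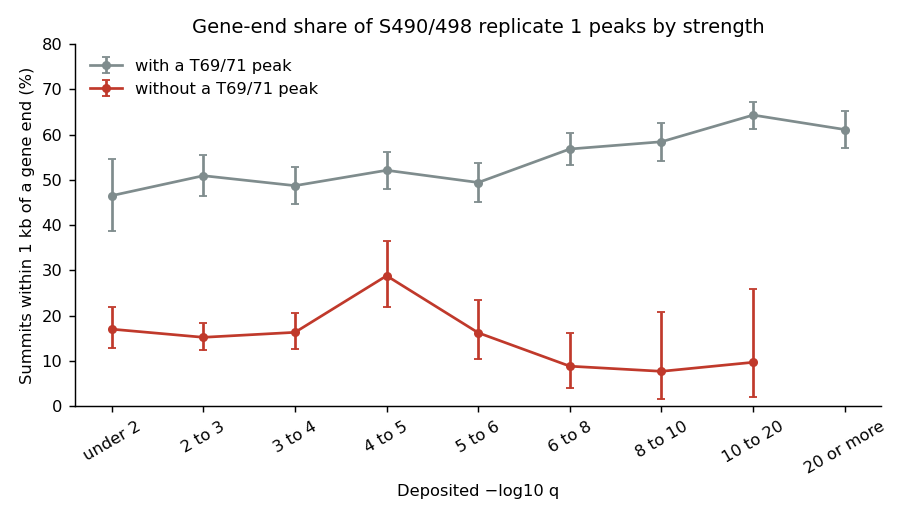
Share (%) of S490/498 replicate 1 summits within 1 kb of a gene end, by deposited −log10 q, with exact binomial 95% intervals. The peaks without a T69/71 peak (red) lie between 7.69% and 28.8%, below those with one (grey, 46.5% to 64.3%) in each band; none of the red set reached 20.

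A smaller share of the gene ends were starts. An annotated start lay within 1 kb of 216 of the 1700 regions on chromosomes with promoter windows (12.7%, 11.2 to 14.4), against 53.1% (51.7 to 54.4) of the other peaks there. Of the 279 regions at a gene end on these chromosomes, 183 (65.6%, 59.7 to 71.2) were among them, against 84.6% (83.2 to 85.9) of the other peaks at gene ends. The remaining 33 of the 216 were counted as inside genes, since places were set by the ends of whole genes and a start can lie within one. The promoter table held 17492 of the 21887 protein-coding genes, so a start can be missed in both sets. A lncRNA gene end lay within 1 kb of 5.45% (4.43 to 6.62) of the regions and 10.8% (9.95 to 11.6) of the others. Transfer RNA gene ends were near 6 regions (0.344%, 0.126 to 0.748) and 0.520% (0.346 to 0.750) of the others, where the intervals overlapped. Small nuclear RNA genes had 1 region (0.0574%, 0.00145 to 0.319) against 0.390% (0.241 to 0.595), and these intervals overlapped too. Over chromosomes 1 to 19, the share of peaks without a T69/71 partner ran from 15.9% (12.5 to 19.9) on chromosome 17 to 33.0% (28.2 to 38.0) on chromosome 6, and chromosome X had 25.4% (18 to 34.1).

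Few regions had a T69/71 peak close by. The nearest T69/71 peak lay within 1 kb for 180 regions (10.3%, 8.94 to 11.9), within 10 kb for 30.3% (28.2 to 32.6) and over 1 Mb away for 18. The median distance was 22.6 kb (quartiles 7.75 and 69). By library, 107 regions had a T69/71 replicate 1 peak within 1 kb, 125 a replicate 2 peak, and 52 both. The share within 1 kb was 6.55% with replicate 2 of T69/71 left out and 5.40% with only T69/71 peaks of −log10 q of at least 5. T69/71 peaks without a partner had a peak of the other 2 larger lists within 1 kb at 7.53% (6.79 to 8.32) and 6.02% (5.47 to 6.60). Their medians were 21.1 and 27.3 kb. Those lists were 1 T69/71 list and S490/498 replicate 1, which together hold fewer peaks than the T69/71 lists searched for the regions. The 180 close regions were more often at gene ends, at 37.8% (30.7 to 45.3) against 13.9% (12.3 to 15.8) of the other 1563, and 29 of them lay within 1 kb of an S490/498 peak that did overlap T69/71.

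**Figure D5:**
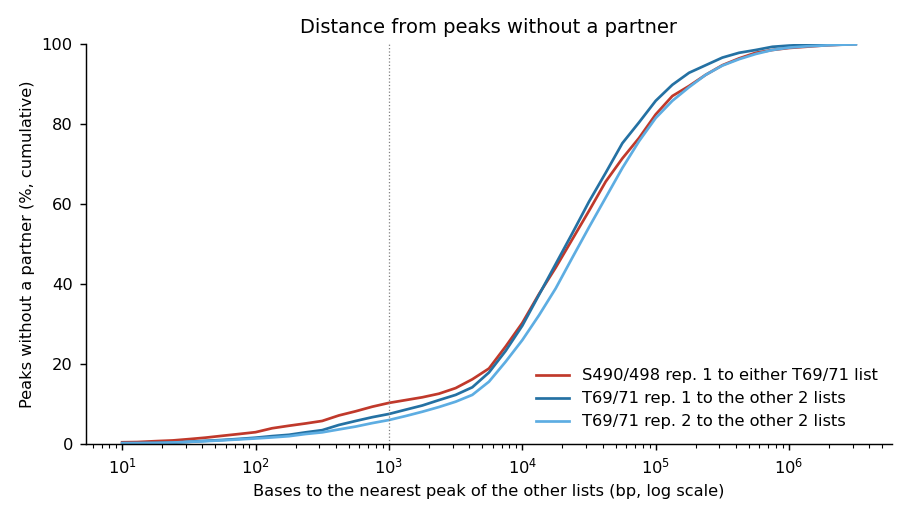
Cumulative share (%) of peaks without a partner by the bases to the nearest peak of the other 2 larger lists, on a log scale, with a dotted line at 1 kb. The 3 curves run close together, with 10.3%, 7.53% and 6.02% at 1 kb and medians of 22.6, 21.1 and 27.3 kb for S490/498 replicate 1 and T69/71 replicates 1 and 2.

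At the edge of the rule, 5 regions just inside it lay 0 or 1 bp from a T69/71 peak. They were at Gm29797 (chromosome 2, fold 4.25), Gfus (chromosome 15, 3.40), inside Tgfbr2 (a TGF-beta receptor, chromosome 9, 6.34) and Tmem267 (chromosome 13, 4.38), and 62.4 kb from Dyrk2 (chromosome 10, 6.63). The 5 peaks just outside overlapped one by 1 to 8 bp. They were at Kcnab2 (fold 5.59) and Arfip1 (3.60), inside Dym (5.99) and Ldb1 (6.57), and near Tbata (3.42).

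The strongest region lay inside Prdm16, which encodes a zinc finger regulator needed to maintain blood stem cells. It spanned chr4:154417318-154417606, 101367 bp from the nearer gene end, with a fold enrichment of 11.2, a −log10 q of 15 and 15 fragments. The nearest T69/71 peaks lay 170498 bp away in replicate 1 and 104874 bp away in replicate 2. A −log10 q of at least 10 was reached by 31 regions and 1657 of the other peaks. After it, 3 regions tied at a −log10 q of 13.6, and 2 of them lay inside Esrrg, an orphan nuclear receptor gene, at chr1:187999232-187999470 (fold 10.5, 12 fragments), and 8.45 kb from Samd9l, an interferon-induced gene that restrains growth of blood cells (chr6:3407932-3408145, fold 10.5, 12 fragments). Their nearest T69/71 peaks were 307 kb and 206 kb away.

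Inside genes, further strong regions lay in Mertk, the receptor kinase for uptake of dying cells (fold 9.95, 11 fragments), Cep170, a centrosome gene (9.95, 11 fragments), Prrc2b (10.0, 13 fragments), Slc49a4 (9.93, 16 fragments), Ncald (9.72, 12 fragments) and Ccbe1 (9.86, 12 fragments). The Slc49a4 region was 191 bp from a T69/71 replicate 1 peak and the Ncald region 916 bp from a replicate 2 peak, whereas those of Mertk and Ccbe1 were at least 86.9 kb from any. Between genes, the strongest after Samd9l were 3.05 kb from Clptm1l (fold 9.86, 17 fragments), 74.5 kb from Tmtc2 (9.95, 11 fragments) and 8.54 kb from Ugt8a (9.80, 11 fragments). These 9 peaks rested on 11 to 17 fragments. The widest region, 1076 bp on chromosome 7 and 38.5 kb from Mrgpra3, had a fold of 4.57 and 4 fragments.

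Only 4 regions had more than 19 fragments, and all lay within 1 kb of a T69/71 peak. One was in Atp5d, a subunit of the mitochondrial ATP synthase, at chr10:80142159-80142353 with its summit 18 bp from an annotated start. It had 31 fragments over a local background of 4.06, a fold of 6.33, and T69/71 peaks 395 and 555 bp away in replicates 1 and 2. The others were at Crlf2, a cytokine receptor gene (30 fragments, local background 10.3, fold 2.75), in Ttc34 (29 fragments, background 6.04, fold 4.26) and at chr9:3015296-3016152 (22 fragments, background 4.97, fold 3.85). The median local background of all 1743 regions was 0.169, against a lowest value of 0.0874 in the list.

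At gene ends, the strongest region was at Gm32584, within D5Ertd579e (chr5:36630508-36630761, fold 10.5, 12 fragments). It was followed by Wipf2, an actin regulator gene (fold 9.30, 13 fragments), Sertad1, which encodes a CDK4-binding protein (8.02, 18 fragments), and Ipo11. Next came Zc3h12c, an RNase gene of the Regnase family (8.04, 9 fragments), Slc6a6, the taurine transporter (7.63, 14 fragments), the neighbours 4931406C07Rik and Taf1d, which share 1 peak (7.27, 9 fragments), and Zfp874a (7.13, 8 fragments). Bach2, a repressor that guides lymphoid differentiation, had 6.88 on 10 fragments at chr4:32238409-32238743, with T69/71 peaks 51.3 and 105 kb away. At Sertad1, T69/71 peaks lay 747 and 814 bp away, and at Zfp874a 72 bp away in replicate 1. At Wipf2 and Slc6a6 the nearest was 26769 and 28634 bp away.

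A region lay at an end of 327 protein-coding genes, which is 1.49% of the 21887, against 3624 genes (16.6%) for the other S490/498 replicate 1 peaks. Of the 327, 228 had no T69/71 peak and no other S490/498 replicate 1 peak within 1 kb of an end. The remaining 99 had a T69/71 peak at an end, 34 of them also another S490/498 replicate 1 peak. Each T69/71 library mattered for this count, which was 748 without replicate 1 and 532 without replicate 2 of T69/71. As 41 regions were at the ends of 2 or more genes, a gene cannot always be assigned.

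Gene lists of the stress, repair and growth pathways of this system held few of these genes. Of the 29 genes of the AP-1, ATF and CREB family, 1 had a region at an end, Atf6, a sensor of unfolded protein (fold 4.97, 5 fragments, nearest T69/71 peak 104 kb away). Of 22 genes of the unfolded protein response and the integrated stress response it was 1, Trib3, a pseudokinase gene induced by ATF4 (5.13, 6 fragments), 204 bp from a T69/71 replicate 2 peak. Fanconi anaemia and crosslink repair had 1 of 26, Mad2l2, a translesion polymerase subunit (5.90, 7 fragments), whose peak also lay at an end of Draxin. Another region, with its summit inside Mad2l2 (4.65, 5 fragments), covered an annotated start of that gene. Cytosolic ribosomal proteins had 3 of 50, Rpl11 (5.98, 7 fragments), Rpl12 (4.88, 8 fragments, shared with Lrsam1) and Rps20 (4.42, 4 fragments), and oxidative phosphorylation had 1 of 30, Ndufb10 (3.96, 8 fragments). The stress MAP kinase pathway (29 genes), immediate early genes (20), the DNA damage checkpoint (29), DNA replication (35), DEK with histone chaperones and HP1 (21) and the cell cycle (25) had 0. For the other peaks of the library, the shares of the same 11 lists ran from 33.3% (oxidative phosphorylation) to 59.1% (the list with Trib3). With 1.49% of all genes carrying such a region, 0 or 1 gene of a list is near the background, and the ribosomal share was 6.00%.

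Of the HSC-enriched genes, 0 of 32 had a region at an end, which is near the background of 1.49% of all genes. With a region inside or at an end there were 7 of 32 (21.9%), all of them inside, against 4.68% of all genes. Besides Prdm16, these included Erg, an ETS factor of stem cells (fold 5.13, 5 fragments), Zfpm1, the GATA cofactor FOG1 (4.59, 6 fragments), Slamf1, the CD150 antigen of the sort (4.21, 4 fragments), Ikzf2 (4.28, 4 fragments) and the RNA-binding gene Msi2 (3.54 on 3 fragments and 4.18 on 4). Over the other lists, the share of genes with a region inside or at an end ran from 0 to 20.0%. The highest was the erythroid marker list (2 of 10), and the neural control list had 10.0%. Inside genes of the other lists there were Trp53bp1 (6.20, 7 fragments) and Rad50 (6.55, 8 fragments) of the DNA damage checkpoint. The Trp53bp1 region had its summit 25 bp from an end of Map1a and is counted at that gene end. Further genes were Cdk6 (4.97, 7 fragments) and Cdc25a (3.66, 3 fragments) of the cell cycle. The unfolded protein response had Ern1 (4.08, 4 fragments) and Eif2ak3 (3.66, 3 fragments). The rest were Creb5 (4.15, 4 fragments), Dusp10 (3.42, 3 fragments) and Mcm5 (3.66, 3 fragments). The HSC-enriched genes are long, with a median of 44.2 kb against 17.2 kb for all genes. Per Mb of gene there were 2.24 regions (8 summits, exact Poisson 95% interval 0.967 to 4.41), against 0.902 (0.846 to 0.962) over all protein-coding genes. The other peaks of the library had 1.40 per Mb in the list (5 summits, 0.455 to 3.27) and 2.77 (2.67 to 2.87) over all genes. In the other gene lists, the regions ran from 0 to 16.3 per Mb. The highest was again the erythroid list (2 summits, 1.98 to 59.0), so a value above that of all genes was not particular to the HSC list. In the HSC list all but Prdm16 had at most 6 fragments. The genes named for a region inside them were named after their values were seen.

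Markers of other blood and marrow cells had no region at an end, with 0 of 14 myeloid, 10 erythroid, 7 megakaryocyte, 9 B lymphoid, 10 T and NK, 10 stromal and endothelial and 10 neural genes. With 1.49% of all genes carrying one, 0 in lists of this length is the background and says nothing of these markers. Genes with the summit inside included Klf1 of the erythroid list (fold 4.43), Ebf1 of the B lymphoid list (4.57) and, in the neural control list, Mbp (5.05). Inside or at an end it was 2 of 10 erythroid, 1 of 9 B lymphoid and 1 of 10 neural genes, and 0 in the rest, against 4.68% of all genes. The genes with the most regions over them or at an end had 3 each, and they were Dip2b, Dnah6, Esrrg, Lyn, Pdzd2, Pik3ap1 and Sgms1. These genes are 113 to 606 kb long, against a median of 17.2 kb for all protein-coding genes, and the counts were not scaled by length. Of these, Lyn encodes a Src family kinase of blood cells and Pik3ap1 an adaptor of PI3 kinase. In Lyn the folds were 5.39, 5.13 and 3.60, and no other S490/498 replicate 1 peak lay over that gene.

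Few promoters under these regions held the CRE letters. Over whole windows, 151 promoter windows of 142 genes were touched by a region, and 5 (3.31%, 1.08 to 7.56) held TGACGTCA. It was held by 2.23% (2.04 to 2.44) of all 21263 windows and by 8.19% (7.27 to 9.19) of the 3247 windows under the other peaks, and with 5 windows the interval of the regions overlapped both. For the shorter core, TGACG, which also counts within the CRE, the shares were 31.1% (23.8 to 39.2), 23.6% (23.0 to 24.2) and 49.5% (47.7 to 51.2). The GC box GGGCGG was in 58.3% (50.0 to 66.2), 46.2% (45.5 to 46.9) and 75.6% (74.1 to 77.1), and the ETS letters CCGGAAG in 14.6% (9.36 to 21.2), 11.6% (11.1 to 12.0) and 22.3% (20.8 to 23.7). The AP-1 letters were in 3.97% (1.47 to 8.45), 6.99% (6.65 to 7.34) and 3.26% (2.68 to 3.93). The amino acid response letters TGATGCAA were in 1.32% (0.161 to 4.70), 0.865% (0.745 to 0.999) and 0.339% (0.169 to 0.605), the CCAAT box in 36.4% (28.8 to 44.6), 38.2% (37.5 to 38.9) and 47.8% (46.1 to 49.6), and the NRF1 motif in 0.662% (0.0168 to 3.63), 1.33% (1.18 to 1.49) and 2.56% (2.04 to 3.16). The shares of the CRE, TGACG, GC box and ETS letters were lowest in all windows and highest under the other peaks, whereas those of the remaining motifs had other orders. CpG content had the order of the first 4. The median ratio of observed to expected CpG was 0.742 (0.706 to 0.815) under the regions, 0.567 (0.557 to 0.577) in all windows and 0.847 (0.839 to 0.853) under the other peaks.

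A CpG ratio of at least 0.6 was a setting added after the data were seen. In such windows, TGACG was in 36.0% (27.2 to 45.5) of 114 under the regions. It was in 35.5% (34.5 to 36.4) of all and 51.5% (49.7 to 53.3) of those under the other peaks. The order of the regions and all windows was reversed here for the CRE (2.63% against 3.72%) and the GC box (69.3% against 74.1%). The ETS letters were reversed too, at 15.8% under the regions against 19.7%. For each of these motifs, the interval of the regions held the share of all such windows. The other peaks still had the highest shares. Under other peaks with −log10 q under 5 alone, a setting likewise added, TGACG was in 41.0% (37.8 to 44.3) of 921 windows and the CRE in 3.91% (2.75 to 5.37), and both intervals overlapped those of the regions. The GC box was in 73.1% (70.1 to 75.9) of these windows, an interval apart from that of the regions. The ETS letters were in 23.3% (20.6 to 26.2) and the NRF1 motif in 2.93% (1.94 to 4.24), near their shares under the other peaks of any strength. Sequence outside promoter windows was not used here, so regions inside and between genes have no such counts.

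Replicate 2 of S490/498 had a peak over 9 of the 1743 regions (0.516%, 0.236 to 0.978), against 178 of the 5389 other peaks (3.30%, 2.84 to 3.82). That list is the shortest of the 4, its weakest summit had 9 fragments and its lowest local background was 1.52, against 3 fragments and 0.0874 in replicate 1. The T69/71 peaks without a partner met it in 15 cases from replicate 1 (0.315%, 0.177 to 0.520) and 59 from replicate 2 (0.841%, 0.641 to 1.08). With −log10 q of at least 5 in replicate 1 of S490/498, it was 5 of 308 (1.62%, 0.529 to 3.75) against 4.41% (3.76 to 5.14), and under 5, 4 of 1435 (0.279%, 0.0760 to 0.712) against 1.19% (0.746 to 1.79). In the stronger class the lower bound of the others was 3.76 and the upper bound of the regions 3.75.

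The 9 regions found with S490/498 in both libraries and with T69/71 in neither were unequal. The region at Gm32584 and D5Ertd579e had a fold of 10.5 in replicate 1 and 21.9 in replicate 2, where its −log10 q was 112. No T69/71 peak lay within 12614 bp. The region in Vps45, a gene of endosomal fusion (chr3:96044664-96044893), had 6.85 and 11.6, with a −log10 q of 30.1 in replicate 2, and its nearest T69/71 peak was 11790 bp away. The region in Wdr63 and Mcoln3 (chr3:146101041-146101456) had 9.53 and 7.35, and one 221049 bp from Cbln4 (chr2:171815050-171815616) had 7.24 and 6.98. Their nearest T69/71 peaks were 48385 and 250070 bp away. The region 96840 bp from Zswim2 had 4.42 and 3.97.

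The other 4 lay within 1 kb of a T69/71 peak. They were in Slc38a9, a lysosomal amino acid sensor gene (6.63 and 5.54, 31 bp from replicate 2 of T69/71), in Trip11 (5.63 and 6.41, 83 bp), in Tmem267 (4.38 and 3.93, 1 bp) and at chr9:3015296-3016152. The last lay in a replicate 2 peak of 7005 bp with a −log10 q of 670, and T69/71 peaks lay 353 and 369 bp from it. The start of the chromosome 9 assembly is known to hold satellite repeats, where mapped signal piles up with many antibodies. With no control library here, the part of such signal in these 9 regions was not tested.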

How the data were processed

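The members and gene lists were chosen with earlier results of these data known. Each library has 1 deposited narrowPeak list. The tools named are Bowtie2 2.2.9, FastQC 0.11.5, ChIPseeker and MACS2, with mm10 as the build, per the submitters' processing notes. The MACS2 version, its settings and any duplicate removal were not given in the sources used here. The authors deposited a fold enrichment (ratio), −log10 p, −log10 q and a score (10 times −log10 q, cut to a whole number) for each summit, and these describe peaks within a list. The smallest −log10 q was 1.31 to 1.39, and depth per library is known only through the recovered background (0.0874 to 1.52).

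Summit fragments (k) and background were solved from fold and p, with p the Poisson chance of more than k, where −log10 p did not exceed 250, and a match within 0.001 was found for 99.8% to 100% of peaks. Genes came from a RefSeq table of GRCm38.p6, promoters from its sequence table. Shares have exact (Clopper-Pearson) 95% intervals for counting error only. Medians, overlaps (1 bp) and gaps were computed with Python 3.11.15, numpy 2.4.6, pandas 2.3.3 and scipy 1.17.1. The steps for overlaps, gaps and recovered fragments were tested on simulated data. No p-value was computed, since the regions come from 1 library. Alternatives varied the overlap, q, windows and T69/71 lists.

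Regions named are the 20 strongest by −log10 q, the 10 strongest per place, those in S490/498 replicate 2, up to 6 per gene list at gene ends, 5 on either side of the overlap rule, 5 over 100 kb from T69/71, the 3 widest and the 5 genes with most regions, of which the text gives a part. Of 16 peaks on other sequences, left out, 2 had no T69/71 partner. Of the checkpoint symbols, 1 was not matched. Some genes of the lists are counted but not reported here by name.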

Additional observations from a re-analysis of the deposited data

How the results depend on the processing

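The count of 1743 regions ranged from 1563 to 2276 when overlap or the T69/71 threshold was varied, and fell to 308 with −log10 q of at least 5 for the S490/498 peaks; leaving out a T69/71 library gave 2276 to 2455. The gene-end share of 16.4% was 11.8% with a window of 500 bp, 20.8% with 2000 bp, 12.0% with −log10 q of at least 5, 13.9% without regions within 1 kb of T69/71, and 20.6% to 25.5% without a T69/71 library. The share within 1 kb of T69/71 (10.3%) was 5.40% with T69/71 peaks of −log10 q of at least 5 and 6.55% to 9.29% without a T69/71 library. With −log10 q of at least 5, 5 regions remained in S490/498 replicate 2, and the medians were 230 bp, a fold of 6.34, a −log10 q of 6.22 and 7 fragments. Without a T69/71 library the medians were 225 to 230 bp, 4.55 to 4.62 in fold, 3.15 to 3.39 in −log10 q and 5 fragments. Genes with a region at an end numbered 748 without T69/71 replicate 1 and 532 without replicate 2, against 327. Both settings allow more regions by construction, with fewer lists searched. Of 68 named regions, 16 lie within 1 kb of T69/71 and 28 have −log10 q under 5. No paired analysis was possible because no result comes from a test between groups. Leaving out S490/498 replicate 1 leaves no regions. Peaks needed at least 3 fragments in these 3 lists, and the lowest local background was 0.117 and 0.105 in the T69/71 libraries against 0.0874 in S490/498 replicate 1; read totals were not used here.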
